A study of Mus musculus with 6 samples.

Results

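Toll-like receptors and their co-receptor CD14 were described in tumour-associated macrophages, the macrophages that accumulate in a tumour, from Lewis lung carcinoma of the mouse. The genes taken were Tlr1, Tlr2, Tlr4 and Tlr6 of the cell surface, Tlr3, Tlr7, Tlr8, Tlr9 and Tlr13 of the endosome, and Cd14. Each of the 10 symbols matched 1 Ensembl identifier among the 55487 genes listed, all 10 passed the filter on low counts, and 14140 genes were tested in all. Lewis lung carcinoma cells, a transplantable line of C57BL/6 origin, were injected under the skin of the flank of C57BL/6 mice, whose tumours were collected 15 to 17 days later. All cells carried CD11b and F4/80 and lacked Ly6C and Ly-6G by flow cytometry, and were divided by surface MHC class II into populations sequenced as 3 libraries labelled MHC-II high (high-labelled) and 3 labelled low (low-labelled). Neither a genetic change nor a drug treatment of the mice is given in the labels. The tumours came from an established line in a host with an intact immune system, and the labels do not say whether a library came from 1 mouse or from pooled tumours. Replicates 1, 2 and 3 of each label belong to batches 1, 2 and 3.

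Toll-like receptors are transmembrane proteins that bind microbial or damage-derived molecules with an outer horseshoe of leucine-rich repeats and signal through an inner TIR domain. Surface receptors bind lipids and proteins, whereas endosomal receptors bind nucleic acids after being carried there by UNC93B1 and cut by proteases. Receptors signal through the adaptors MyD88 or TRIF to NF-kB and interferon regulatory factors, which switch on cytokine genes. CD14 is a lipid-anchored protein that hands lipopolysaccharide to the complex of TLR4 with MD-2, and macrophages are among the cells that carry most of these receptors.

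Before any receptor is considered, the libraries differed in ways that touch the results. In all 6 libraries the MHC class II transcripts contradicted the label. H2-Aa, a chain of the sorted surface protein, had 4.40, 5.48 and 6.69 CPM (read counts scaled to a common library size) in the high-labelled libraries, replicates 1, 2 and 3, against 1377, 1166 and 1506 CPM in the low-labelled ones. The groups are therefore named by their labels, and every direction is that of the libraries as labelled. Labelled low replicate 3 stood apart, with 10202879 reads in genes of which 47.3% fell on a ribosomal RNA copy, against 15159356 to 25473051 reads and 3.85% to 13.5% in the other 5 libraries. Its CPM rose with the GC content of genes with a slope of 0.74 in log2 units for 10 percentage points, where the other libraries had slopes of -0.59 to 0.09. All 10 of the macrophage markers examined were detected, at a summed 10193 to 12326 CPM with the high label and 6896 to 12423 CPM with the low label. That sum overlapped, but Adgre1, which encodes F4/80, and Lyz2, lysozyme, were higher with the high label without overlap, by log2 fold changes of 0.90 and 0.93 (adjusted p 0.132 and 0.122 by edgeR, 0.0171 and 0.015 with an offset for GC content, 0.00354 and 7.335e-05 by DESeq2). The other macrophage markers overlapped, and 19.9% of all tested genes had values without overlap. By edgeR 4 of the 10 markers had log2 fold changes above 0 and 6 below. Their median was -0.30, and 0.01 with the GC offset.

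None of the 10 genes passed an adjusted p of 0.05 by edgeR's quasi-likelihood test with Benjamini-Hochberg adjustment over all genes, where 63 of 14140 genes (0.446%) passed, 13 of them higher and 50 lower in the high-labelled libraries, or 1 and 40 with the batch as a block. Tlr2, Tlr7 and Tlr9 had an unadjusted p under 0.05, as did 1704 genes in all. The CPM of the labels did not overlap for 3 of the 10 genes, Tlr2 and Tlr7 with the higher values and Tlr9 with the lower values with the high label, and 19.9% of all tested genes had such values. The median log2 fold change was 0.30 over the 10 genes and -0.02 over all tested genes. With an offset that takes out each library's trend over GC content, 2 of the 10 passed, Tlr2 higher and Tlr9 lower, where 2.45% of all genes passed. With the GC offset and the batch as a block the same 2 passed, where 4.08% of all genes did. DESeq2, with no offset, also gave Tlr2 as higher and Tlr9 as lower, where 2.81% of all genes passed. The labels do not tie the 3 libraries of a label to separate mice, and the p-values therefore cover only the spread from library to library, which may be technical. In sorted bulk samples, fewer cells of a type and less RNA per cell cannot be told apart.

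**Figure D1:**
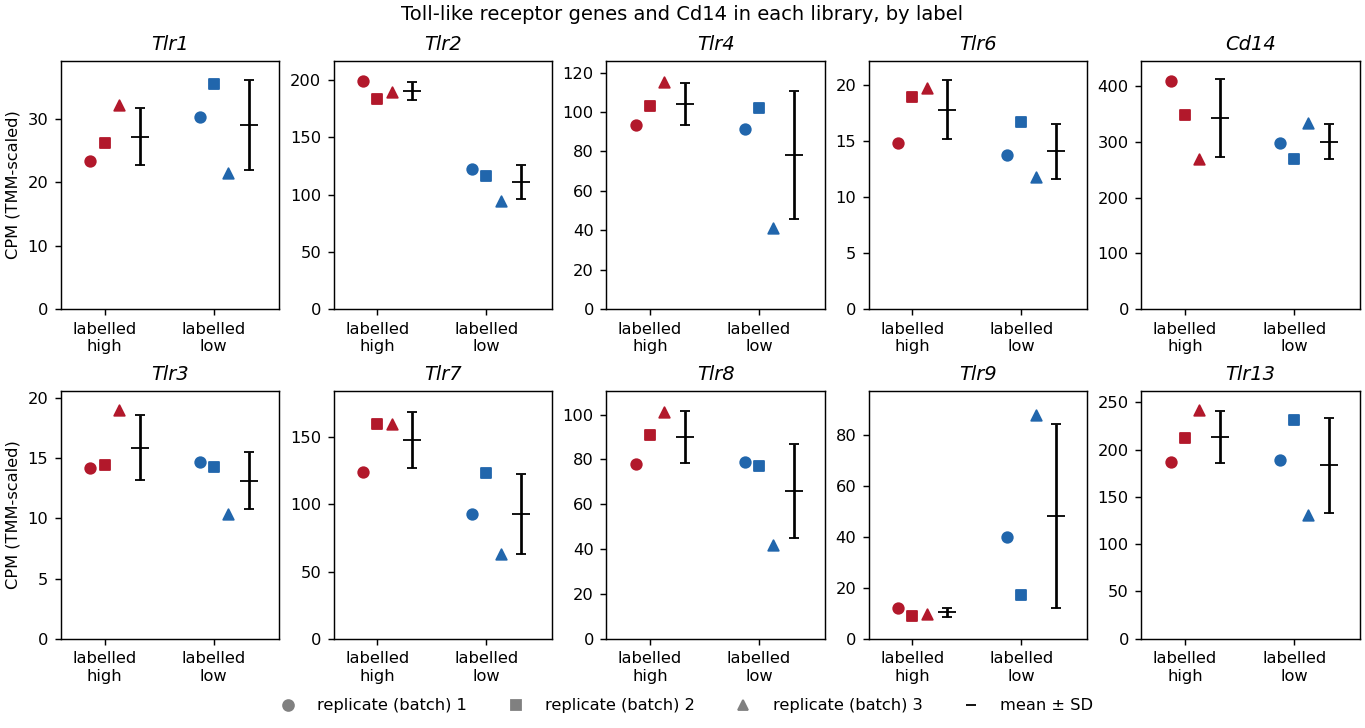
CPM scaled by TMM factors (y axis, from 0) of the 10 genes in each library, with the 3 libraries labelled MHC-II high in red on the left and the 3 labelled low in blue on the right; symbols mark the replicate, which is the batch, and black bars give the mean ± SD of 3 libraries. Labelled low replicate 3, the blue triangle, is the lowest of the 6 libraries for 8 genes and the highest for Tlr9.

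Among the surface receptors, Tlr2, which recognises bacterial lipopeptides in a pair with TLR1 or TLR6, had the largest difference between the labels. The gene lies on chromosome 3 from 83836272 to 83841767 on the minus strand (GRCm38), without an overlapping gene. It had 199, 183 and 189.8 CPM in the high-labelled libraries, from 3573, 4109 and 5308 reads, against 122, 116 and 94.2 CPM in the low-labelled ones, from 2293, 2846 and 528 reads. Every library labelled high lay above every library labelled low, and the 3 labelled high were close together. The means were 191 ± 7.9 CPM with the high label and 111 ± 15 CPM with the low label (SD, n = 3 each), 1.72-fold higher with the high label. The log2 fold change by edgeR was 0.78 ± 0.17 (SE), with an unadjusted p of 0.00182 that became 0.14 when adjusted. The log2 ratio within batches 1, 2 and 3 was 0.70, 0.65 and 1.01, higher in 3 of 3. Tlr2 passed with the GC offset (log2 fold change 0.79, SE 0.11, adjusted p 0.00925 by edgeR), with the offset and the block (0.80, SE 0.10, adjusted p 0.0101) and by DESeq2 (adjusted p 0.00499). Its GC content is 49.3%, near the middle of the range of the 10 genes, and the offset moved its fold change by little. Without batch 3 and with the offset its adjusted p by edgeR was 0.0517 at a log2 fold change of 0.70, and without labelled low replicate 2 and with no offset it was 0.0399 at 0.84.

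Tlr1 and Tlr6, the partners of TLR2 for triacylated and diacylated lipopeptides, lie side by side on the minus strand of chromosome 5, Tlr1 from 64924679 to 64933563 and Tlr6 from 64952031 to 64960097. Tlr1 had 23.3, 26.1 and 32.1 CPM in the high-labelled libraries, against 30.3, 35.4 and 21.4 CPM in the low-labelled ones. Tlr6 had 14.8, 18.9 and 19.7 CPM with the high label, against 13.7, 16.7 and 11.8 CPM with the low label. The labels overlapped for both genes, and the differences, with log2 fold changes of -0.10 (SE 0.24, adjusted p 0.831 by edgeR) for Tlr1 and 0.33 (SE 0.22, adjusted p 0.503) for Tlr6, were within the spread between libraries. Within batches, Tlr1 was lower with the high label in batches 1 and 2, by log2 ratios of -0.38 and -0.44, and higher in batch 3 at 0.58, where labelled low replicate 3 was the lowest library. After removal of the GC trend Tlr1 stood at 23.3, 23.9 and 28.5 CPM with the high label and 31.6, 31.2 and 28.6 CPM with the low label, which did not overlap, with an adjusted p of 0.306 by edgeR.

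The pair shares sequence, which bears on how its reads were counted. The longest stretch that the transcripts of Tlr1 and Tlr6 have in common letter for letter is 229 bases of coding sequence, at chr5:64925537-64925765 in Tlr1 and chr5:64953828-64954056 in Tlr6, on the minus strand (GRCm38, GENCODE M21). It is shown because a read wholly within it matches both genes:
Tlr1 and Tlr6 shared stretch: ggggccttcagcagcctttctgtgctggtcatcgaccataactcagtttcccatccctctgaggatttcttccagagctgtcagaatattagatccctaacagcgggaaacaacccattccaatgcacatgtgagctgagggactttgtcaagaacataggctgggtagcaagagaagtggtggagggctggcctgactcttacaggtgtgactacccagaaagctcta
Of the start positions of stretches of 50 bases, 15.3% in the Tlr1 transcript matched Tlr6 exactly and 12.5% in the Tlr6 transcript matched Tlr1. Tlr2, Tlr4, Tlr7, Tlr8, Tlr9, Tlr13 and Cd14 had no such position in common with any other transcript. Reads aligned to several places stood on a separate line of each count table, at 7.6% to 17.4% of a library. The values of Tlr1 and Tlr6 therefore leave out reads that aligned to both, and how far this affects their levels was not measured.

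Tlr4, the signalling receptor for lipopolysaccharide, lies on chromosome 4 from 66827584 to 66930284 on the plus strand. It had 93.6, 103 and 115 CPM in the high-labelled libraries, against 91.6, 102 and 41.2 CPM in the low-labelled ones. Batches 1 and 2 were nearly level, with log2 ratios of 0.03 and 0.02, and batch 3 gave 1.48, so the mean difference (104 ± 11 CPM with the high label and 78.2 ± 32 CPM with the low label, SD, n = 3 each) rested on labelled low replicate 3. The log2 fold change was 0.40 ± 0.31 (SE, adjusted p 0.543 by edgeR), and without that library it was 0.10.

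Cd14, the co-receptor that presents lipopolysaccharide to TLR4, lies on chromosome 18 from 36725067 to 36726798 on the minus strand. It had 409, 349 and 269 CPM in the high-labelled libraries, against 298, 269.8 and 333 CPM in the low-labelled ones. The labels overlapped and no direction held in all 3 batches, with log2 ratios of 0.45, 0.37 and -0.31. The log2 fold change was 0.19 ± 0.20 (SE, adjusted p 0.642 by edgeR). With the GC trend removed, Cd14 stood at 411, 375 and 317 CPM with the high label and 274, 290.0 and 264 CPM with the low label, without overlap. Its log2 fold change was then 0.41 ± 0.12 (SE), which did not pass (adjusted p 0.135 by edgeR).

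Of the endosomal receptors, Tlr9, which recognises unmethylated CpG DNA, differed most and in the opposite direction to Tlr2. It lies on chromosome 9 from 106222598 to 106226883 on the plus strand, without an overlapping gene. It had 12.2, 9.09 and 9.76 CPM in the high-labelled libraries, from 220, 204 and 273 reads, against 39.9, 17.1 and 88.0 CPM in the low-labelled ones, from 749, 419 and 493 reads. The 3 libraries labelled high lay close together below all of those labelled low, which differed among themselves. The means were 10.4 ± 1.7 CPM with the high label and 48.3 ± 36 CPM with the low label (SD, n = 3 each), 4.66-fold lower with the high label. The log2 fold change by edgeR was -2.21 ± 0.52 (SE), with an unadjusted p of 0.00268 that became 0.161 when adjusted. The log2 ratio within batches 1, 2 and 3 was -1.70, -0.91 and -3.17, lower in 3 of 3. With the GC offset the log2 fold change was -1.53 ± 0.29 (SE, adjusted p 0.0353 by edgeR), and with the offset and the block -1.46 ± 0.19 (SE, adjusted p 0.0087). DESeq2 without an offset gave -2.23 with an adjusted p of 0.00107.

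Tlr9 has the highest GC content of the 10 genes, 56.2%, and its highest values fell in the libraries with the steepest rise of CPM over GC content, labelled low replicates 3 and 1. With that trend removed it stood at 12.0, 10.9 and 13.7 CPM in the high-labelled libraries, against 33.7, 20.9 and 51.9 CPM in the low-labelled ones, still without overlap. Without labelled low replicate 3 the log2 fold change was -1.46 (adjusted p 0.166 by edgeR), and without labelled low replicate 2 it was -2.58 with an adjusted p of 0.00414. Labelled low replicate 2 had a slope of CPM over GC content of -0.48, within the range of -0.59 to -0.09 of the high-labelled libraries, and without it the slopes of the labels did not overlap. Without batch 3 and with the GC offset it was -1.25 (adjusted p 0.0836).

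Other cell types that carry Tlr9 in the mouse were measured by their markers. Summed over 9 conventional dendritic cell markers, CPM ranged from 1.67 to 2.25 in the high-labelled libraries and from 12.7 to 26.0 in the low-labelled ones, with no marker at 0 in all libraries. Of these markers 4 were tested, all lower with the high label. Flt3 and Ccr7 passed by edgeR, at log2 fold changes of -4.70 and -7.77 (adjusted p 0.0396 and 0.00684, or 0.022 and 0.0111 with the batch as a block). They had 8 and 1 reads in total with the high label, against 186 and 229 with the low label. Over 7 B cell markers the sums were 4.06 to 4.79 CPM with the high label and 8.59 to 17.8 CPM with the low label. Both lists were lower with the high label without overlap, as was Tlr9. Among the B cell markers, Ms4a1 had 6 reads in total with the high label and 11 with the low label. Tlr9 itself had 697 reads in total with the high label and 1661 with the low label. The plasmacytoid dendritic cell marker Siglech had 2 reads in total with the high label and 0 with the low label, and Klk1 had none, while most of that list's summed 124 to 141 CPM with the high label and 93.0 to 115 CPM with the low label came from Tcf4, which many cells express. T and NK cell markers summed to 0.668 to 1.57 CPM with the high label and 1.92 to 2.50 CPM with the low label, with Cd3e, Cd3d and Cd8a at 0 in all libraries. Epithelial or carcinoma markers summed to 14.8 to 21.7 CPM with the high label and 41.0 to 42.6 CPM with the low label. With the low label most of that sum came from Cdh1. The other markers of the list, Epcam, Krt8, Krt18 and Krt19, overlapped between the labels, with log2 fold changes of -0.32 for Krt8 and 0.00 for Krt18. Cdh1 passed by edgeR, lower with the high label (log2 fold change -1.71, adjusted p 0.018, or 0.044 with the batch as a block). The sums of monocyte, neutrophil, fibroblast and endothelial markers overlapped between the labels, but some of their genes did not. Ccr2, a chemokine receptor of monocytes, had 160.2, 229 and 246 CPM with the high label, against 515, 763 and 286 CPM with the low label (adjusted p 0.219 by edgeR, 0.00202 with the GC offset and 0.0216 by DESeq2). The monocyte marker Plac8, the fibroblast marker Col1a2 and the endothelial marker Pecam1 were also lower with the high label without overlap. The other fibroblast markers overlapped. Kdr, an endothelial marker too, was higher with the high label without overlap. It had 14.7, 10.9 and 14.6 CPM there, against 8.05, 6.38 and 10.7 CPM with the low label. The neutrophil marker Cxcr2 was likewise higher without overlap, from 14 reads in total with the high label and 3 with the low label. The part of other cells in the Tlr9 difference was not tested.

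Tlr7, a receptor for single-stranded RNA, lies on the X chromosome from 167304929 to 167330558 on the minus strand. It had 124, 160.1 and 160.0 CPM in the high-labelled libraries, against 93.0, 123 and 63.2 CPM in the low-labelled ones. The values did not overlap, although the lowest value with the high label was 124 CPM and the highest with the low label 123 CPM. The means were 148 ± 21 CPM with the high label and 93.0 ± 29.8 CPM with the low label (SD, n = 3 each), 1.59-fold higher with the high label, with a log2 fold change of 0.67 ± 0.26 (SE) and an unadjusted p of 0.031 that became 0.387 when adjusted over all genes by edgeR. The log2 ratios within batches were 0.42, 0.38 and 1.34, higher in 3 of 3. With the GC trend removed the 3 labelled low libraries came together, at 124, 142 and 132 CPM with the high label against 99.9, 102 and 97.9 CPM with the low label. The log2 fold change was then 0.41 ± 0.10 (SE), and the adjusted p was 0.0723 by edgeR. Leaving out 1 library with no offset, Tlr7 passed only without labelled low replicate 2 (log2 fold change 0.95, adjusted p 0.0448 by edgeR), a fit in which 1030 genes passed. Without any of the other 5 libraries its adjusted p was 0.501 to 0.857, and without labelled low replicate 3 its log2 fold change was 0.45 (adjusted p 0.527).

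Tlr8, the X-linked neighbour of Tlr7 and likewise a sensor of RNA, lies from 167242696 to 167264329 on the minus strand. It had 78.1, 90.8 and 101 CPM in the high-labelled libraries, against 78.8, 77.1 and 41.8 CPM in the low-labelled ones, a log2 fold change of 0.44 ± 0.26 (SE, adjusted p 0.478 by edgeR). The labels overlapped, and the log2 ratios within batches 1 and 2 were -0.01 and 0.24, against 1.27 in batch 3.

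Tlr13, which in mice recognises bacterial ribosomal RNA, lies on the X chromosome from 106143204 to 106160493 on the plus strand. It had 187, 212 and 242 CPM in the high-labelled libraries, against 189, 231 and 131 CPM in the low-labelled ones. The labels overlapped, and the log2 fold change was 0.22 ± 0.24 (SE, adjusted p 0.641 by edgeR). With the GC trend removed all 6 libraries lay between 187 and 208 CPM.

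Tlr3, the receptor for double-stranded RNA that signals through TRIF alone, lies on chromosome 8 from 45395665 to 45411080 on the minus strand. It had 14.2, 14.4 and 19.0 CPM in the high-labelled libraries, against 14.7, 14.3 and 10.4 CPM in the low-labelled ones. The labels overlapped, and the log2 fold change of 0.27 had an SE of 0.23 (adjusted p 0.577 by edgeR). Of its exon bases, 381 are shared with the antisense gene Gm45542, and since the strand setting of the counting is not given in the sources used here, reads of the pair cannot be told apart there.

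In batch 3 the ratio exceeded those of batches 1 and 2 for 8 of the 10 genes, the same 8 whose lowest CPM was in labelled low replicate 3, and the exceptions were Cd14 and Tlr9, the 2 genes with the highest GC content (52.5% and 56.2%). After removal of the GC trend, labelled low replicate 3 was the lowest library for 4 of the 10 genes. The CPM of the labels then did not overlap for 5 of the 10 genes, Tlr2, Tlr7 and Cd14 with the higher and Tlr1 and Tlr9 with the lower values with the high label, where 23.8% of all tested genes had such values. The median log2 fold change over the 10 genes was 0.15 with the GC offset and 0.01 over all genes. What gave rise to the GC trend was not tested.

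**Figure D2:**
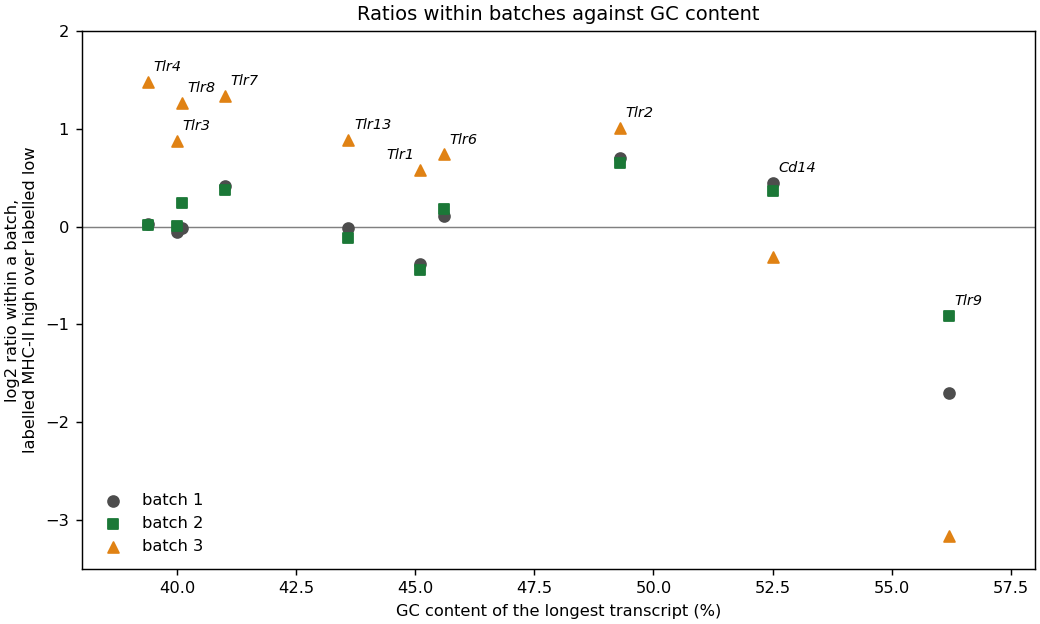
Log2 ratio of CPM within a batch, labelled MHC-II high over labelled low (y axis), against the GC content of each gene's longest transcript in percent (x axis), with 1 symbol per batch for each of the 10 genes. In batch 3 the ratio runs from 1.48 for Tlr4 at 39.4% GC to -3.17 for Tlr9 at 56.2%, while the ratios of batches 1 and 2 lie close together for every gene except Tlr9 and, to a lesser degree, Tlr8.

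**Figure D3:**
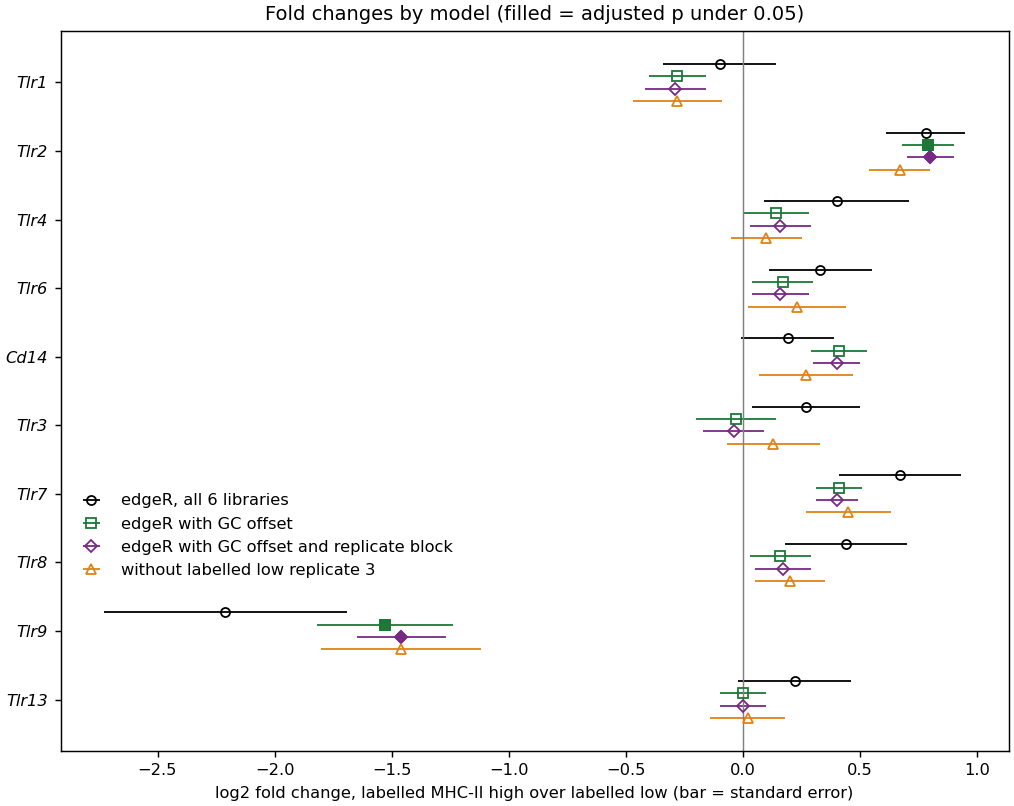
Log2 fold changes of the 10 genes (x axis, bars are standard errors), labelled MHC-II high over labelled low, in 4 fits: edgeR on all 6 libraries, with a GC offset, with the GC offset and a replicate block, and without labelled low replicate 3. Filled symbols passed an adjusted p of 0.05, which only Tlr2 and Tlr9 did in these fits, both with the GC offset.

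Levels were compared between genes as CPM divided by the exon length in kilobases. Cd14 was the most abundant under both labels, at 198 ± 40.4 with the high label and 173 ± 18 with the low label (SD, n = 3 each). Tlr2 followed with the high label at 63.2 ± 2.6, against 36.8 ± 4.9 with the low label, where Tlr13 stood above it at 42.7 ± 12 with overlapping ranges. Under the high label Tlr13 stood at 49.7 ± 6.4 and Tlr7 at 36.3 ± 5.1, and then came Tlr8 at 25.1 ± 3.2, Tlr4 at 18.7 ± 1.9, Tlr1 at 8.12 ± 1.3 and Tlr6 at 4.78 ± 0.70. Each of these ranges lay apart from that of the next gene. Tlr3 at 3.05 ± 0.52 and Tlr9 at 2.98 ± 0.48 closed the order and overlapped. Under the low label the ranges of Tlr7 (22.8 ± 7.3), Tlr8 (18.4 ± 5.8) and Tlr4 (14.1 ± 5.8) each overlapped that of the next gene. Tlr9, at 13.9 ± 10.4 with the low label, was not the last but the seventh in order. Its range of 4.93 to 25.3 overlapped those of Tlr7, Tlr8, Tlr4 and Tlr1.

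**Figure D4:**
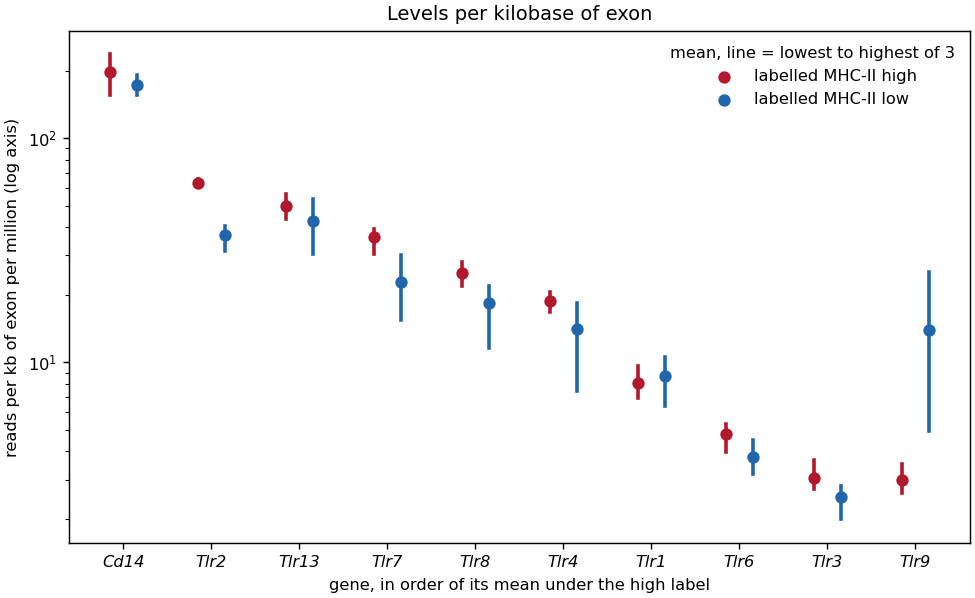
CPM per kilobase of exon on a log axis for the 10 genes, in the order of their mean with the high label; points are means of 3 libraries, red for labelled MHC-II high and blue for labelled low, and lines run from the lowest to the highest library. Levels span from Cd14 at 198 with the high label to Tlr3 at 2.51 with the low label, and Tlr9 is the gene whose place in the order differs most between labels.

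Ratios between receptors that work together compare genes within a library, and the pairs were chosen after the values were seen, so no test is given. Tlr1 over Tlr6, per kilobase, was 1.75, 1.54 and 1.82 in the high-labelled libraries, against 2.47, 2.36 and 2.03 in the low-labelled ones, without overlap, and these genes have nearly the same GC content (45.1% and 45.6%). Tlr2 over Tlr1 was 9.49, 7.78 and 6.56 with the high label, against 4.47, 3.65 and 4.88 with the low label. Tlr2 over Tlr6 was 16.6, 12.0 and 11.9 with the high label, against 11.0, 8.60 and 9.89 with the low label. Relative to both partner transcripts, Tlr2 was thus more abundant in every library labelled high than in any labelled low. Cd14 over Tlr4 overlapped between the labels, with 14.0, 10.8 and 7.53 with the high label and 10.4, 8.52 and 25.9 with the low label. Tlr7 over Tlr8 also overlapped, at 1.45 ± 0.089 with the high label and 1.26 ± 0.19 with the low label. Tlr9 over Tlr7, receptors that share the carrier UNC93B1, was 0.116, 0.0666 and 0.0716 with the high label, against 0.504, 0.164 and 1.63 with the low label, a pair whose GC contents differ (56.2% and 41.0%).

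The promoters of Tlr2 and Tlr9, the genes of opposite direction that passed with the GC offset, are shown from 250 bases before to 50 bases after the RefSeq start (GRCm38.p6). RefSeq windows were matched for 7 of the 10 genes. In the window of Tlr2, chr3:83841559-83841858 on the minus strand, capitals mark GGGCGG, the core of the Sp1 GC box, found at positions -69 and -48 from the RefSeq start. GENCODE places the start of Tlr2 upstream of that, at 83841767, so both matches lie within the gene by that annotation. In the window of Tlr9, chr9:106222348-106222647 on the plus strand, capitals mark GAGGAA, a core of PU.1 sites, at position -112 and on the opposite strand at 13, and TGANTCA, the AP-1 site, at -58.
Tlr2 promoter: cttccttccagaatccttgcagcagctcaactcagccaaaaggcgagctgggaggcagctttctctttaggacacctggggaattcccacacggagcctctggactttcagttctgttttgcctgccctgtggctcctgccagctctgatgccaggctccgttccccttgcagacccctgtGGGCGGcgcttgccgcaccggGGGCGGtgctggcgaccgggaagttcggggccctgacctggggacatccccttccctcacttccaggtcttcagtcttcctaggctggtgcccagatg
Tlr9 promoter: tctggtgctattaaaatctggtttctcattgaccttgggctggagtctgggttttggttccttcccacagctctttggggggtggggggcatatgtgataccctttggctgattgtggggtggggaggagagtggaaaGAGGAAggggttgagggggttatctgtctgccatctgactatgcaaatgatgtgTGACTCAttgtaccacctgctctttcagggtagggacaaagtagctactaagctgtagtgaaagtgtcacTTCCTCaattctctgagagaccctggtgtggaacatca
Both strands were searched, no match overlapped another in these windows, and GGGCGG was in 35.7% of 32851 mouse promoter windows of this length, GAGGAA in 28.3% and TGANTCA in 7.81%. The window of Tlr2 is 62.0% GC. GGGCGG was also in the window of Tlr3, and at -42 and -24 in that of Tlr5, which like Tlr9 was lower with the high label. GAGGAA was also in windows of Tlr1, Tlr8 and Tlr13. Any tie of these letters to the direction of a gene was not tested.

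Other genes of the pathway were taken in 10 lists, chosen with earlier results of these data known. Of their 88 genes 82 were tested, and 1 passed by edgeR, Il1b, which was lower in the high-labelled libraries and did not pass with the batch as a block. By DESeq2, 2 were higher and 6 lower. Of all tested genes 0.446% passed by edgeR and 2.81% by DESeq2, and 1704 of 14140 had an unadjusted p under 0.05 by edgeR. The labels did not overlap for 5 genes of the lists that were higher and 13 that were lower, where 19.9% of all tested genes had such values. The genes named below were those with the smallest p of each list. The median log2 fold change of the 82 was -0.19, beside -0.02 over all genes.

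Of the 3 further Toll-like receptors 1 was tested. Tlr5, the flagellin receptor, had 9.96, 10.4 and 12.6 CPM in the high-labelled libraries, against 24.5, 21.3 and 22.7 CPM in the low-labelled ones. The values did not overlap, and unlike those of Tlr9 the labelled low values lay close together. The log2 fold change was -1.05 ± 0.20 (SE), which did not pass (adjusted p 0.0863 by edgeR) but passed with the GC offset (-1.13, adjusted p 0.00999) and by DESeq2 (adjusted p 0.000424). Tlr11 had 3 reads in total with the high label and 20 with the low label, and Tlr12 3 reads with the high label and 34 with the low label, too few to test.

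Among 6 genes of lipopolysaccharide co-reception and the RP105 complex none passed by edgeR, 1 had an unadjusted p under 0.05 and 1 passed by DESeq2, Cd36 in each case, and the median log2 fold change was 0.08. Cd36, a scavenger receptor that assists TLR2 with TLR6 and TLR4 with TLR6, had 188, 148 and 179 CPM with the high label, against 71.6, 54.9 and 32.3 CPM with the low label. The labels did not overlap, at a log2 fold change of 1.69 ± 0.29 (SE, adjusted p 0.0654 by edgeR, and 0.0182 with the GC offset at 1.37). Ly96, which encodes MD-2, stood at 10.2 ± 0.22 CPM with the high label and 7.64 ± 2.7 CPM with the low label, and Ly86, the MD-1 partner of RP105, at 58.3 ± 10.1 CPM with the high label and 67.9 ± 3.1 CPM with the low label (SD, n = 3 each). Lbp, the binding protein of lipopolysaccharide in serum, had 27 reads in total with the high label and 38 with the low label.

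None of 7 genes of receptor folding and trafficking passed by edgeR (2 had an unadjusted p under 0.05, and 1 passed by DESeq2), with a median log2 fold change of -0.61, which was -0.14 with the GC offset. Unc93b1, which carries the endosomal receptors out of the endoplasmic reticulum, had 236, 152 and 129 CPM with the high label, against 252, 124 and 413 CPM with the low label, and overlapped. Slc15a3 and Slc15a4, endolysosomal transporters, stood at 92.0 ± 12 CPM and 55.4 ± 2.9 CPM with the high label, against 228 ± 119.7 CPM and 89.8 ± 27 CPM with the low label (SD, n = 3 each). Both had values without overlap, but adjusted p of 0.226 and 0.328 by edgeR, at log2 fold changes of -1.31 and -0.69. With the GC offset these were -0.63 and -0.22 (adjusted p 0.0588 and 0.536 by edgeR). Cnpy3, a folding partner of several Toll-like receptors, stood at 31.2 ± 9.1 CPM with the high label and 53.2 ± 26 CPM with the low label.

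None of 4 proteases that process endosomal receptors passed by edgeR (2 had an unadjusted p under 0.05, and 1 passed by DESeq2), and their median log2 fold change was 0.38. Ctss, cathepsin S, had 2025, 1962 and 1956 CPM with the high label, against 1294, 1401 and 1087 CPM with the low label (log2 fold change 0.65, SE 0.18, adjusted p 0.242 by edgeR). Ctsl, cathepsin L, stood at 793 ± 38 CPM with the high label and 551 ± 104 CPM with the low label. Both sets of values were higher with the high label without overlap. Ctsb, cathepsin B, and Lgmn, asparagine endopeptidase, overlapped, with log2 fold changes of 0.23 and 0.03.

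Of 6 TIR adaptor genes 5 were tested and none passed by edgeR or DESeq2, although 3 had an unadjusted p under 0.05 by edgeR. Myd88, the adaptor of all of these receptors except TLR3, had 18.5, 20.0 and 18.4 CPM with the high label, against 33.4, 23.9 and 45.0 CPM with the low label (log2 fold change -0.84, SE 0.25, adjusted p 0.275). Ticam2, which encodes TRAM, the bridge between TLR4 and TRIF, had 36.6, 38.4 and 43.6 CPM with the high label, against 26.3, 29.9 and 21.6 CPM with the low label (log2 fold change 0.60, SE 0.19, adjusted p 0.314). Neither gene's labels overlapped, and the directions were opposite. Ticam1, which encodes TRIF, stood at 13.1 ± 1.6 CPM with the high label and 25.7 ± 15 CPM with the low label, and Pik3ap1, the adaptor BCAP, at 156 ± 13 CPM with the high label and 178 ± 38 CPM with the low label (SD, n = 3 each).

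None of 18 kinases and ubiquitin ligases passed by edgeR or DESeq2 or had an unadjusted p under 0.05, and their log2 fold changes lay between -0.44 and 0.36. Map3k7, the kinase TAK1, had a log2 fold change of 0.36, Irak1 and Irak2, kinases recruited by MyD88, -0.27 and -0.33, and Tbk1, the kinase that activates IRF3, 0.22. None of 10 negative regulators passed by edgeR or DESeq2 (1 had an unadjusted p under 0.05), with a median of -0.10. Socs1, a feedback inhibitor of cytokine signalling, had 43 reads in total with the high label and 85 with the low label, Irak3, an inhibitory kinase-like protein, a log2 fold change of 0.34, Rnf216, a ligase for Toll-like receptors, -0.27, and Sigirr, a receptor-like inhibitor, -0.72.

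None of the 6 transcription factor genes passed by edgeR or DESeq2, and 1 had an unadjusted p under 0.05. All 6 had log2 fold changes below 0 without the GC offset, with a median of -0.59. With the offset 4 were below 0 and 2 above, Irf3 at 0.02 and Jun at 0.26, with a median of -0.18. Irf5, a partner of MyD88, stood at 113 ± 28 CPM with the high label and 199 ± 88 CPM with the low label, and Rela, the p65 subunit of NF-kB, at 34.8 ± 13 CPM with the high label and 66.1 ± 45 CPM with the low label (SD, n = 3 each). Irf3 and Irf7, which switch on interferon genes, had log2 fold changes of -0.48 and -0.70. All 4 of these overlapped between labels and have GC contents of 55.4% to 59.4%.

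Of 17 induced cytokines and enzymes 14 were tested, and 1 passed by edgeR, while 4 had an unadjusted p under 0.05. By DESeq2 3 passed, with the GC offset 3 and with the offset and the block 5, all lower with the high label. Of all tested genes 2.81%, 2.45% and 4.08% passed in the same fits. Il1b, the interleukin 1 beta gene, had 42.0, 48.6 and 63.5 CPM with the high label, against 144, 193 and 138 CPM with the low label. It fell at a log2 fold change of -1.62 ± 0.23 (SE, adjusted p 0.0311 by edgeR), and the call held in 12 of 18 alternatives. With the batch as a block the adjusted p was 0.0742 at a log2 fold change of -1.63. It was 0.172, 0.25 and 0.0891 without labelled high replicates 1, 2 and 3, 0.165 without labelled low replicate 1 and 0.296 with total counts, whereas with the GC offset and the block it was 0.000799. Il6 had 26 reads in total with the high label and 113 with the low label (adjusted p 0.176 by edgeR, 0.0494 with the GC offset and 0.0125 by DESeq2). Ccl5, a T cell attracting chemokine, had 85 reads with the high label and 152 with the low label (adjusted p 0.21 by edgeR, 0.115 with the GC offset and 0.024 by DESeq2). Il1a stood at 23.3 ± 7.7 CPM with the high label and 35.5 ± 4.7 CPM with the low label (SD, n = 3 each). The median of the list was -0.55, and -0.59 with the GC offset.

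None of 11 cytosolic pattern receptors and their adaptors passed by edgeR (4 had an unadjusted p under 0.05, and 1 passed by DESeq2), and the median log2 fold change of -0.60 was -0.24 with the GC offset. Tmem173, which encodes STING, had 22.1, 21.4 and 20.9 CPM with the high label, against 47.8, 26.6 and 46.8 CPM with the low label (log2 fold change -0.91, SE 0.25, adjusted p 0.231). Nod2, a sensor of bacterial cell wall fragments, stood at 7.36 ± 1.7 CPM with the high label and 16.8 ± 6.3 CPM with the low label (SD, n = 3 each). Mavs, the adaptor of RIG-I, and Zbp1, a sensor of Z-form nucleic acids, had log2 fold changes of -0.69 and -0.75. The labels did not overlap for any of these 4 genes, which were named for having the smallest p of the list. The other genes of the list overlapped, and 19.9% of all tested genes had values without overlap.

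**Figure D5:**
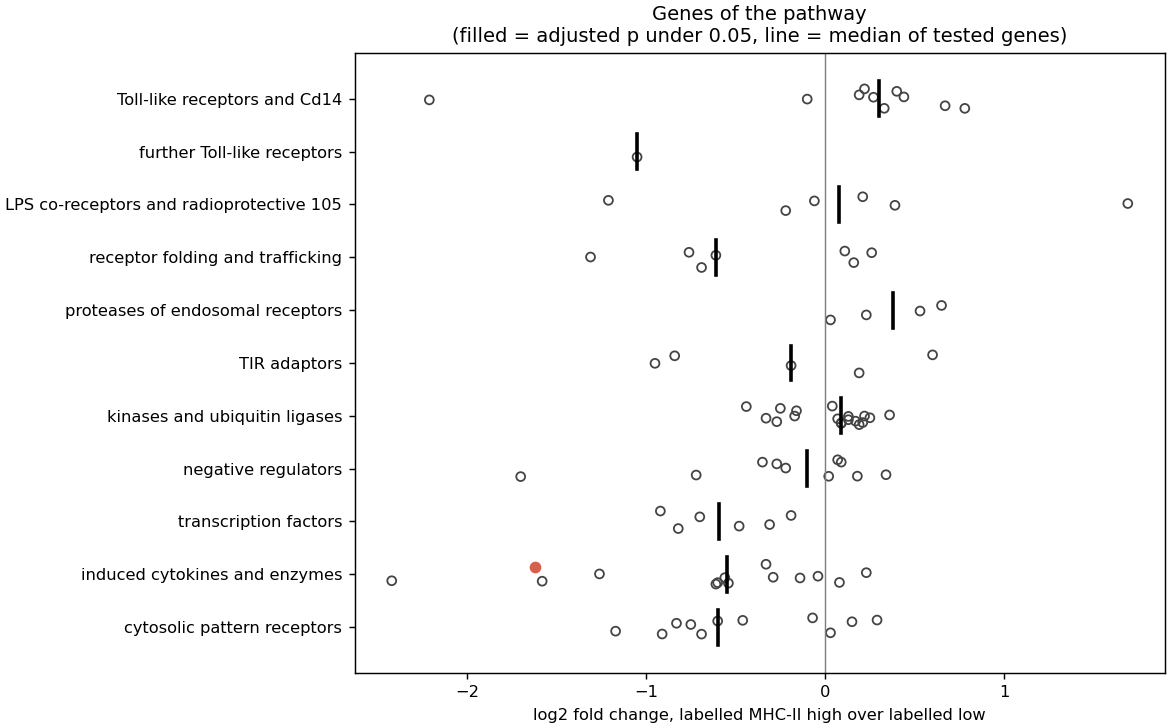
Log2 fold changes, labelled MHC-II high over labelled low, of the 9 Toll-like receptor genes and Cd14 (top row) and of the tested genes of 10 pathway lists; 1 circle is 1 gene, a filled circle passed an adjusted p of 0.05 by edgeR, black bars are medians and the height within a row is random. The median is 0.30 in the top row and below 0 in 7 of the 10 lists, and the filled circle is Il1b at -1.62, which did not pass with the batch as a block (adjusted p 0.0742).

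For each of the 10 genes the protein-coding gene with the most similar log2 CPM over the 6 libraries was found among 8965 genes of at least 5 CPM on average. It was Hebp1 for Tlr2 (Pearson r 0.999, and 1.00 over the 5 libraries without labelled low replicate 3), Maoa for Tlr7 (0.999), Kcnj2 for Tlr13 (0.999), Sestd1 for Tlr4 (0.999), Tmem229b for Tlr9 (0.999) and Mrpl35 for Tlr6 (0.999). For Tlr8 it was Tut4 (0.997), for Tlr1 Soat1 (0.995), for Tlr3 Ctcf (0.988) and for Cd14 Lamc1 (0.978). Cd14 had the fewest genes at 0.9 or more, 32, and Tlr13 the most, 1867. The libraries share their depth and GC trends across genes, so these likenesses describe 6 points only. Tmem229b, the gene most like Tlr9, had 17.9, 15.4 and 15.9 CPM in the high-labelled libraries, against 34.8, 21.4 and 57.6 CPM in the low-labelled ones. Hebp1, a heme-binding protein gene, had 19.4, 18.0 and 18.2 CPM with the high label, against 11.7, 11.2 and 8.57 CPM with the low label.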

How the data were processed

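RNA was measured in 3 libraries of each label, depleted of ribosomal RNA and made stranded, per the labels' protocols. The deposited files hold raw read counts per Ensembl gene. The build was GRCm38 and the tools HTSeq, STAR, Trimmomatic, FastQC and DESeq2, per the submitters' processing notes; no annotation release or strand setting is given in the sources used here. Depth ran from 10202879 to 25473051 reads in genes. Ambiguous reads (0.324% to 0.864%), multiply aligned reads and those outside features (35.2% to 49.4%) stayed out of library sizes and tests.

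GENCODE M21 (GRCm38) matched 55227 of 55487 genes and gave symbols, coordinates, exon lengths and GC content; promoters are RefSeq's. In R 4.3.3, edgeR 4.0.16 computed TMM factors, filtered low counts by default and compared the labels by the quasi-likelihood test with no further terms, Benjamini-Hochberg adjusted over all genes at 0.05. CPM are counts over TMM-scaled library sizes. The standard error of a fold change is its size over the square root of F. Alternatives were RLE factors, total counts, DESeq2 1.42.0, limma-voom (3.58.1), other filters, the batch as a block, a GC offset (local regression of log2 CPM on GC content, span 0.4), dropping mitochondrial and rRNA genes, and leaving out libraries or batch 3; the last together with the GC offset was added after seeing the data. The labels give pairs of libraries a shared batch number; the deviations of paired libraries from their label's mean correlated at 0.15, 0.32 and -0.07. The scripts were tested on simulated counts. All 10 members are named, up to 4 genes with the smallest p per pathway list, and the most similar gene of each member. The members, lists and tests were chosen with earlier results of these data known.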

Additional observations from a re-analysis of the deposited data

How the results depend on the processing

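The direction and call of the 10 genes were recomputed under 18 alternatives, 180 values in all. Of these 158 kept the direction and did not pass, and 11 passed where the edgeR test did not (5 each for Tlr2 and Tlr9 and 1 for Tlr7). The other 11 changed sign, all in Tlr1, Tlr3 or Tlr13, whose log2 fold changes by edgeR were -0.10, 0.27 and 0.22. Tlr3 and Tlr13 changed sign only with the GC offset or without batch 3. Tlr1 turned to 0.103 with total counts, and ranged from -0.28 to 0.0887 when 1 library was left out, with 0.0136 without labelled high replicate 1. Tlr3 and Tlr13 turned to -0.0333 and -0.00173 with the GC offset, to -0.0438 and -0.00335 with the offset and replicate block, to -0.014 and -0.0699 without batch 3, and to -0.022 and -0.0587 without batch 3 with the offset. Total counts moved the median log2 fold change of all genes to 0.25, and Tlr1 lay below that median there too; no other alternative moved it past 0.04.

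Tlr2 was also past the threshold with no filter on low counts (adjusted p 0.0473 by edgeR), as was Tlr9 (adjusted p 7.228e-11), while over the alternatives their adjusted p ranged from 0.00499 to 0.837 and from 7.228e-11 to 0.58. The replicate block alone changed no call of the 10 genes: the adjusted p of Tlr2 was 0.336 and that of Tlr9 0.209. It ended the call of Il1b (adjusted p 0.0742).

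Over all genes, where 13 were higher and 50 lower, DESeq2 gave 121 higher and 277 lower, no filter 113 and 436, the GC offset 143 and 204, the offset with replicate block 223 and 354, the paired fit with the replicate block alone 1 and 40, and total counts 8 and 52. Leaving out 1 library gave 0 to 246 higher and 8 to 784 lower; the largest counts came without labelled low replicate 2, and without labelled low replicate 3 there were 15 and 55. Without batch 3 there were 0 and 28, and with the GC offset as well 42 and 107. The causes were not tested. Depth limits Tlr3, Tlr6 and Tlr1 most, with 58, 66 and 120 reads in labelled low replicate 3.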
